A study of Homo sapiens with 12 samples.

Results

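The circRNAs described here are the 3411 exonic circles on protein-coding transcripts for which the table of this study gave no circBase identifier. They were chosen by 3 annotation columns: class exonic, an empty circBase field and a best-matching transcript of the NM type, and the choice used no read count. They make up 19.0% of the 17938 circRNAs in the table and 26.1% of its 13092 exonic coding circRNAs, of which the other 9681 carry a circBase identifier and are called recorded circRNAs below. Junction reads were counted in rRNA-depleted total RNA of HCT116 and Lovo (as the labels spell it), both established lines from human colorectal tumours, in 4 groups of 3 libraries each. The groups were 5-fluorouracil (5-Fu) resistant HCT116, its sensitive parental line, 5-Fu resistant Lovo and its sensitive parental line. 5-Fu is a fluoropyrimidine that disturbs thymidylate synthesis and is used against colorectal cancer. The resistant cells came from stepwise doses that began at 0.1 and ended at 2 μg/ml, and survived 3 days or more at the last dose, per the labels. Whether replicate libraries stem from separate cultures is not stated in the labels, and p-values therefore reflect the spread between these samples alone, which may be technical. Whether a line was selected for resistance more than 1 time is not stated either.

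A circRNA forms when the spliceosome joins a splice donor to an acceptor that lies upstream of it in the same transcript. The closed circle has no free ends, which protects it from exonucleases, and circRNAs often outlive the linear mRNA of the same gene. The back-splice junction is the only stretch that the linear mRNA lacks, so reads across it are taken to count the circle. Whether each listed junction came from a circle was not tested. A circle has 1 such junction whatever its length, so junction reads were compared between circles without scaling by length. circBase is a public collection of circRNAs reported in earlier sequencing studies, and an empty field says only that the table gave no match to it. RNA came from bulk cultures, so fewer cells that hold a circle and fewer circles per cell cannot be told apart.

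All 3411 have class exonic and a coding transcript because they were chosen by these columns, so this is no check of the label. Each identifier repeated its position and strand columns. The lack of a circBase identifier did not always mean the lack of any record. For 202 of them (5.92%) the source column named 1 of 2 earlier publications, and for 3209 (94.1%) it named none. No circRNA without a record carried a disease annotation, against 375 recorded circRNAs. Total junction reads ranged from 5654 to 10535 per library. Resistant libraries averaged 8780 ± 865 reads and sensitive libraries 8536 ± 2164 in HCT116 (SD, n = 3 each; two-sided exact permutation p = 1), and in Lovo 7333 ± 301 and 6096 ± 570 (SD, n = 3 each; two-sided exact permutation p = 0.1, the smallest that 3 against 3 allow). All 3 resistant Lovo libraries were deeper than the 3 sensitive ones, and this moves with every unscaled count of Lovo circles below. Of 13 colon epithelium markers, 6 host a circRNA in the table, while none of the 8 fibroblast, 6 immune or 5 endothelial marker genes does. The marker hosts with circRNAs were read at 13, 10, 18 and 25 reads in resistant HCT116, sensitive HCT116, resistant Lovo and sensitive Lovo.

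Most of these circles were rare. At least 1 read was found for 2521 (73.9%), and 890 (26.1%) are listed with 0 reads in all 12 libraries. Among recorded circRNAs, 1094 (11.3%) had 0 reads. The circles without a record held 7296 of 92237 junction reads (7.91%), and recorded ones 67146 (72.8%). Among circles with reads the median was 2 reads over the 12 libraries without a record and 4 with one. The highest count in any library was 2 for 1596 of them, 3 for 501, 4 for 175, 1 for 158 and 5 or more for 91. Only 28 (0.821%) reached 10 reads in all, against 1476 recorded circRNAs (15.2%), and 5 reached 20, against 570. The class was not dominated by a few circles: its 12 most abundant members held 407 reads, 5.58% of its total.

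The share of circles that lack a record went down with abundance. Among exonic coding circRNAs with 2 reads it was 39.8%, with 3 reads 26.5%, with 4 reads 20.2%, with 5 or 6 reads 11.6%, with 7 to 9 reads 5.20%, with 10 to 19 reads 2.48% and with 20 or more 0.870%. Circles with 1 read stood outside this order, at 20.8%, and those with 0 reads at 44.9%. These classes were compared as descriptions of 1 table, with no test.

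Recurrence across groups and libraries was compared at the same read number, since scarce circles are missed more easily. Of those with reads, 2104 (83.5%) were seen in 1 of the 4 groups, 342 in 2, 59 in 3 and 16 in all 4. Of recorded circRNAs with reads, 42.6% were seen in 1 group and 14.6% in all 4. At 4 reads in all, 50.8% of circles without a record lay in 1 library, against 18.4% of recorded ones. At 5 or 6 reads the shares were 33.8% and 6.26%, and at 7 to 9 reads 13.0% and 0.716%.

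**Figure D1:**
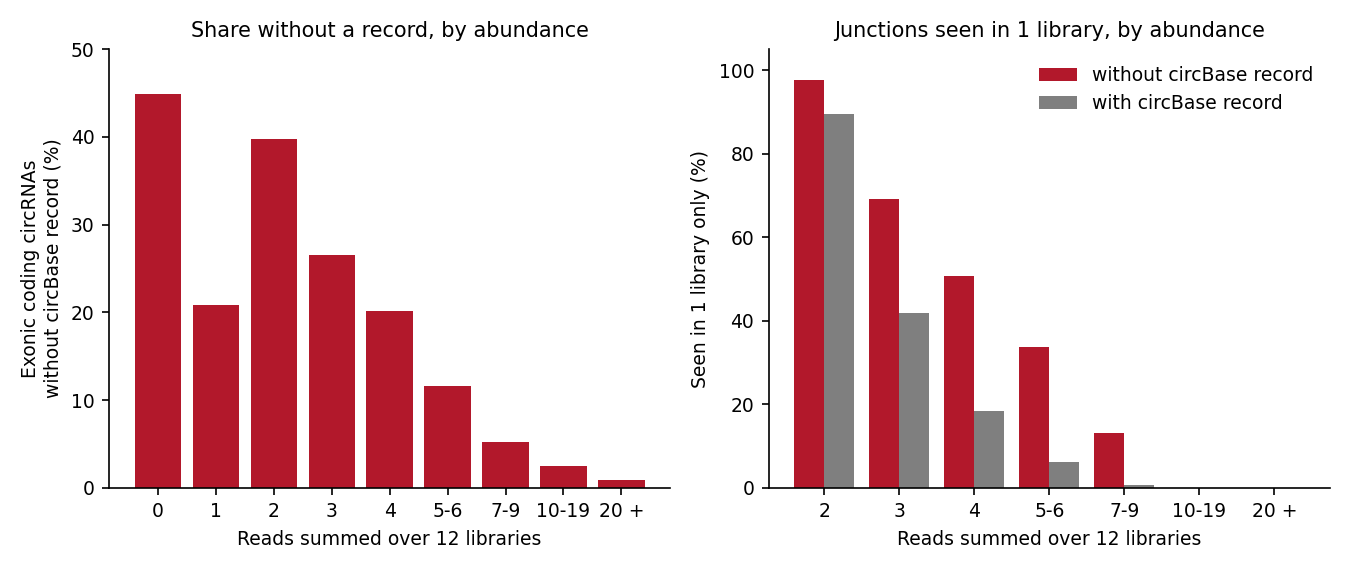
Left, percent of exonic coding circRNAs that lack a circBase record (bars) by reads summed over the 12 libraries; right, percent of circRNAs seen in 1 library only, for circles without and with a record, by the same reads. The share without a record goes down from 39.8% at 2 reads to 0.870% at 20 or more, and at 4 reads 50.8% of circles without a record lie in 1 library, against 18.4% of recorded ones.

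The same held library by library. Each library gave between 115 and 182 circles without a record that had exactly 2 reads in it, and between 512 and 848 recorded ones. Of these, a median of 9.23% (lowest 4.95%, highest 15.8%) without a record had a read in another library of the same group, against 43.7% (37.6% to 48.7%) of recorded ones. The share without a record was the lower in 12 of 12 libraries, and the ranges did not overlap. At 3 reads the medians were 13.2% and 54.6%, again lower without a record in all 12 libraries. Within the class the 6 Lovo libraries ranged from 9.09% to 15.8% at 2 reads and the 6 HCT116 libraries from 4.95% to 9.38%, so the lines overlapped only at their edges. When all other 11 libraries were searched, the medians were 23.0% without a record and 76.5% with one.

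**Figure D2:**
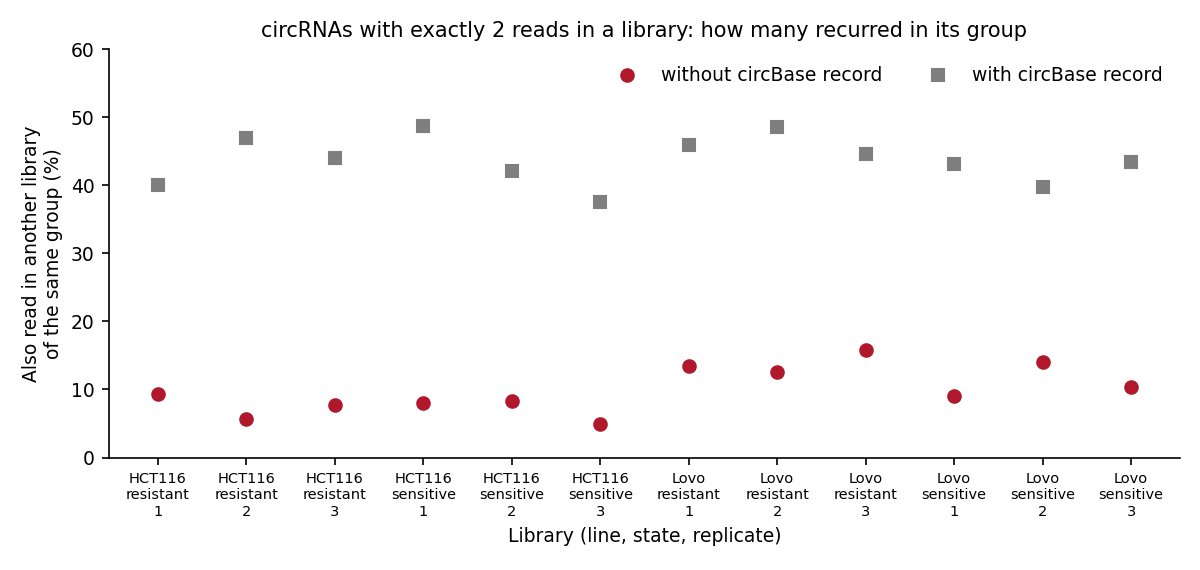
For each library, the percent of circRNAs with exactly 2 reads in it that were also read in another library of the same group, for circles without (circles) and with (squares) a circBase record. The circles without a record lie between 4.95% and 15.8% and the recorded ones between 37.6% and 48.7%.

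The share of a library's reads on the class overlapped between all groups. It was 8.43%, 6.71% and 7.90% in the resistant HCT116 libraries and 9.11%, 7.85% and 7.94% in the sensitive ones. In resistant Lovo it was 7.52%, 7.64% and 7.89%, and in sensitive Lovo 9.11%, 7.73% and 7.06%. The group means were 7.68% ± 0.878, 8.30% ± 0.698, 7.68% ± 0.191 and 7.97% ± 1.05 in the same order (SD, n = 3 each), so the largest difference between states of a line was smaller than the SD of both HCT116 groups. The exact 95% binomial interval of 1 library, such as 6.17% to 7.29% for the lowest, covers counting error alone, because the reads carry no molecular identifiers and need not be independent molecules.

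Different circles seen were counted at the full and at a common depth. Resistant HCT116 showed 797 of them, sensitive HCT116 881, resistant Lovo 725 and sensitive Lovo 626, of which 585, 646, 472 and 401 were seen in that group alone. Over the 4 groups, 83.5% of circles with reads were seen in 1 group, against 42.6% of recorded ones. Scarce circles are missed more easily, so these counts do not mark circles as particular to a group. Per library 206 to 375 were detected. At a common depth of 5654 reads the expected number was 244 ± 22.3 in resistant and 268 ± 26.6 in sensitive HCT116, and 248 ± 3.55 in resistant and 226 ± 20.6 in sensitive Lovo (SD, n = 3 each). For recorded circRNAs it was 1897 ± 172, 1878 ± 230, 1864 ± 8.20 and 1764 ± 173 in the same order (SD, n = 3 each).

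By cell line, 1301 of the circles with reads (51.6%) were seen in HCT116 alone, 955 (37.9%) in Lovo alone and 265 (10.5%) in both. The recorded circRNAs divided as 32.5%, 22.0% and 45.5%. With 5 or more reads in all, 31.2% of circles without a record were in HCT116 alone, 24.4% in Lovo alone and 44.4% in both, against 12.1%, 6.83% and 81.0% of recorded ones. Between states of a line the overlap was small too: of 1566 circles seen in HCT116, 685 were seen in resistant libraries alone, 769 in sensitive ones alone and 112 (7.15%) in both states. Of 1220 seen in Lovo the numbers were 594, 495 and 131 (10.7%). Among recorded circRNAs 39.5% and 38.0% were seen in both states of HCT116 and Lovo. With 5 or more reads in all, 32.8% of the circles without a record that were seen in HCT116 were seen in both states, and 39.8% of those seen in Lovo, against 67.1% and 61.3% of recorded ones.

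The circles without a record had the greater median length. Their predicted length, the summed exon length that the table gives for each circle, had a median of 754 bases (quartiles 440 and 1211.5, range 99 to 8349), against 532 bases (quartiles 350 and 841) for recorded circRNAs. Circles over 1500 bases made up 17.1% (583) of the class and 7.30% of recorded ones, and circles of up to 300 bases 9.70% (331) and 16.9%. The share without a record was 16.8% among circles of up to 300 bases, 20.7% from 301 to 600, 27.2% from 601 to 1000, 35.9% from 1001 to 1500, 43.1% from 1501 to 3000 and 56.5% beyond. Mean reads per circle lay between 2.02 and 2.17 in the 5 bins up to 3000 bases and at 3.72 above, where 1 USP34 circle holds 112 reads and 1 FAT1 circle 90. A length that is a multiple of 3 was given for 37.2% of circles without and 36.4% of circles with a record.

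**Figure D3:**
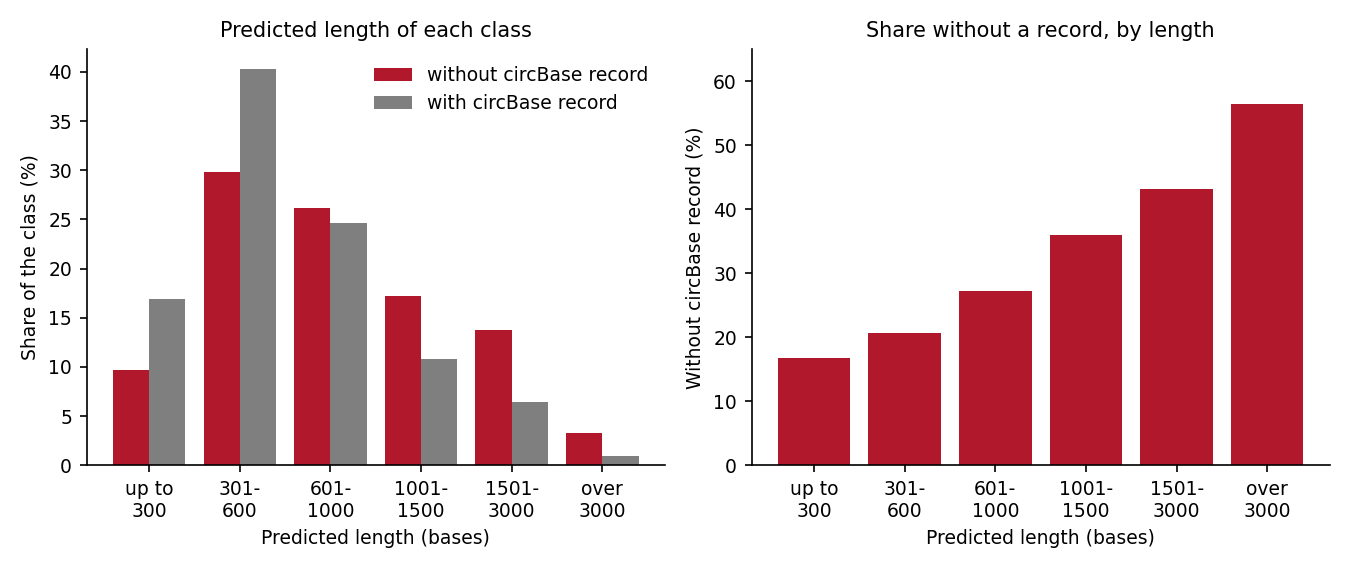
Left, percent of each class by predicted length in bases, for circles without and with a circBase record; right, percent of exonic coding circRNAs that lack a record in each length bin. The share without a record goes up from 16.8% in circles of up to 300 bases to 56.5% in circles over 3000 bases.

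On the genome (hg19) they spanned a median of 12720 bases (quartiles 5082.5 and 26258), against 9227 for recorded circRNAs, and 8.36% spanned more than 50000 bases, against 4.88%. The longest spans belonged to circles of INPP4B, a phosphoinositide phosphatase (chromosome 4, 143226611 to 143326477, 99867 bases, 0 reads), GBF1, which activates Arf GTPases at the Golgi (99801 bases, 4 reads, all in sensitive HCT116 replicate 2), and SCAPER (99420 bases, 3 reads, all in resistant HCT116 replicate 1). The longest span of a recorded one was 99936 bases. The shortest belonged to TMCO3 (chromosome 13, 114193672 to 114193822, 151 bases, 3 reads), to the splicing kinase gene SRPK2 (158 bases, 2 reads) and to the deubiquitinase gene USP8 (163 bases, 0 reads). In 92 circles (2.70%) the span equalled the predicted length, so that no intron lay between the ends, against 4.82% of recorded ones. The most abundant of these were circles of PPARG, a nuclear receptor of lipid metabolism (451 bases, 18 reads), KLHL25 (1804 bases, 13 reads) and KIAA1671 (2766 bases, 12 reads).

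A circle can lack a record and still use splice sites that recorded circRNAs use. Of the 3411, 183 (5.37%) had both ends in recorded circRNAs of the table, each end in a different one, 636 (18.6%) shared the acceptor end only, 448 (13.1%) the donor end only and 2144 (62.9%) neither. At least 1 end was shared by 37.1%, whereas 62.5% of recorded exonic coding circRNAs shared an end with another recorded one. Circles with both ends in recorded circRNAs were the longest, with a median of 1155 bases, against 867 with the acceptor, 740.5 with the donor and 680.5 with neither. Reads were found for 82.0%, 77.7%, 71.4% and 72.6% of these sets, at mean reads of 2.67, 2.35, 2.08 and 2.04 per circle. Among themselves, 21.9% shared an end with another circle that lacks a record. Only 6 lay within 5 bases of a recorded junction at both ends, the most abundant being in LARP4 (4 reads), TEX10 (3 reads), and TANC1 and ECT2 (2 reads each).

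Where an end was shared, the circle without a record was usually the scarcer partner. For the 964 with reads and a shared end, the median was 2 reads and the median of the most abundant recorded partner was 5 reads. The circle without a record had fewer reads than that partner in 70.3%, the same number in 11.1% and more in 18.6%. Of the 28 with 10 or more reads 15 had a partner, and 12 of these exceeded every recorded partner. The 28 were picked by the same reads that are compared here, which favours such an excess, so nothing is concluded from the 12. The most abundant with both ends shared were in CTNNA1, which encodes alpha-catenin of adherens junctions (chromosome 5, 138117612 to 138147991, 13 reads, highest partner 11), and, tied at 11 reads each, 1 circle of EIF3E, a translation initiation factor gene, and 2 of ZMYM2, a zinc finger gene. The EIF3E circle had far fewer reads than its highest partner, which had 39. The 2 ZMYM2 circles use the same start on chromosome 13 at 20534098 and end at 20568059 and 20580726, with highest partners of 3 and 18 reads.

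The 202 circles named in an earlier publication are given apart from the other 3209. Reads were found for 83.7% of them, against 73.3% of the rest, and 5 or more reads for 14.4%, against 6.39%. They were seen in 2 or more groups in 28.2%, against 11.2%, and their median length was 471 bases, against 771. The most abundant were a circle of RNF213, an E3 ubiquitin ligase gene (15 reads), followed by 4 circles tied at 13 reads, those of HSD17B12, an enzyme of fatty acid elongation, KLHL25, a substrate adaptor of a cullin ligase, MCTP2 and a second circle of FAT1.

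The 12 most abundant circles show how the reads fell across lines. The last 3 of them, with 13 reads, were taken from 6 circles with that number by the order of their identifiers, and the other 3, of FAT1 (a second circle), HNRNPA2B1 and CTNNA1, follow them. USP34 encodes a deubiquitinase. Its circle (chromosome 2, minus strand, 61483519 to 61552592, spanning 69074 bases with a predicted length of 3291) had 29, 24 and 36 reads in resistant HCT116 and 14, 6 and 3 in sensitive HCT116, against 0 in all 6 Lovo libraries. Every resistant HCT116 library exceeded every sensitive one. It shares its acceptor with 1 recorded circRNA, which had 2 reads in all. FAT1 encodes an atypical cadherin. Its circle (chromosome 4, minus strand, 187538159 to 187542929, predicted length 4265) shares neither end with a recorded circRNA and had 1, 10 and 6 reads in resistant and 6, 1 and 6 in sensitive HCT116, and 13, 9 and 10 in resistant and 7, 17 and 4 in sensitive Lovo. Resistant and sensitive libraries overlapped in each line, while the 3 sensitive HCT116 libraries lay below the 3 resistant Lovo ones.

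NBPF1 belongs to the neuroblastoma breakpoint family, whose near-identical copies on chromosome 1 could share reads, so its values are uncertain. Its circle (chromosome 1, minus strand, 16891302 to 16893846, predicted length 515) had 3, 1 and 7 reads in resistant HCT116, 0, 2 and 0 in sensitive HCT116, 6, 5 and 8 in resistant Lovo and 19, 1 and 4 in sensitive Lovo. A single library, sensitive Lovo replicate 1, held 19 of the 24 reads of its group.

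Among the other 9, 3 were read in HCT116 alone and 2 in Lovo alone. The circle of SLCO4A1, an organic anion transporter gene (chromosome 20, 61291764 to 61292527, predicted length 234), had 3, 7 and 0 reads in resistant and 5, 4 and 4 in sensitive HCT116, and 0 in Lovo. KLHL25 (chromosome 15, 86311248 to 86313051) had 4, 2 and 2 in resistant and 1, 2 and 2 in sensitive HCT116, and RNF213 (chromosome 17, 78237373 to 78286967) had 7, 0 and 6 in resistant and 0, 0 and 2 in sensitive HCT116. The reverse pattern was shown by SLCO1B3, which encodes a hepatic uptake transporter, and PIK3R3, which encodes a regulatory subunit of PI3K. The SLCO1B3 circle (chromosome 12, 21028169 to 21054401, predicted length 1138) had 2, 6 and 2 reads in resistant and 2, 8 and 2 in sensitive Lovo. The PIK3R3 circle (chromosome 1, 46512223 to 46546422, predicted length 910) had 1, 6 and 2 in resistant and 2, 2 and 4 in sensitive Lovo.

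The remaining 4 were read in both lines. The PPARG circle (chromosome 3, 12458203 to 12458653) had 1, 3 and 5 reads in resistant and 0, 1 and 0 in sensitive HCT116, and 4, 2 and 2 in resistant and 0, 0 and 0 in sensitive Lovo. The sums were 9 reads in resistant and 1 in sensitive HCT116, a ratio of 8.15 (95% counting interval 1.13 to 357), and 8 reads in resistant and 0 in sensitive Lovo, at least 2.30-fold higher with a floor of 3 reads over the group. These reads were too few to enter the test, and the interval covers counting error alone. In HCT116, USP34 (3.51, 2.20 to 5.81), RNF213 (5.89, 1.33 to 53.7) and NBPF1 (4.98, 1.09 to 46.3) also had such ratios above 1. MCTP2 had one in Lovo (8.63, 1.23 to 374). None of the 12 had an interval below 1. HSD17B12 was at least 1.84-fold higher in sensitive HCT116 with that floor (5 against 0 reads), a value without an interval. All 5 of these reads came from replicate 1. The MCTP2 circle (chromosome 15, 94899366 to 94928754) had 0, 0 and 1 in resistant and 0, 0 and 1 in sensitive HCT116, and 5, 2 and 3 in resistant and 0, 0 and 1 in sensitive Lovo. PPP1R12B, a myosin phosphatase subunit gene, and HSD17B12 had 15 and 13 reads scattered over both lines with 0 in 6 and 8 libraries. The 3 tied circles left out of the 12 were also read in both lines, the second FAT1 circle and that of CTNNA1 with 5 reads in HCT116 and 8 in Lovo each, and that of HNRNPA2B1, an RNA-binding protein gene, with 4 in HCT116 and 9 in Lovo.

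**Figure D4:**
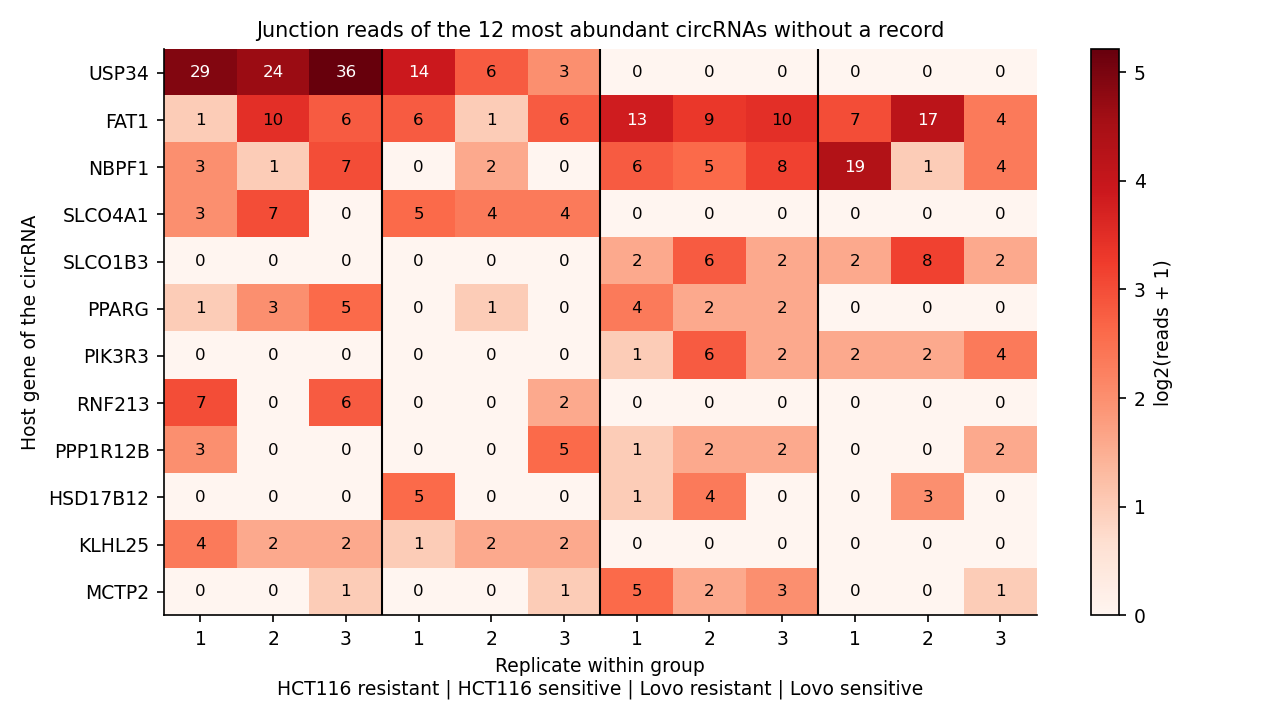
Junction reads (numbers in cells, colour as log2(reads + 1)) of the 12 most abundant circles without a record, named by host gene, in the 3 libraries of each group. USP34, SLCO4A1, RNF213 and KLHL25 have 0 reads in all 6 Lovo libraries, and SLCO1B3 and PIK3R3 have 0 in all 6 HCT116 libraries.

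Across all 48 circles with 8 or more reads, 7 were read in HCT116 alone, 12 in Lovo alone and 29 in both. Recorded circRNAs were not counted at this cut. In the nearest read classes, 41.3% of circles without a record with 7 to 9 reads lay in 1 line, against 18.7% of recorded ones. With 10 to 19 reads the shares were 26.1% and 7.95%. These shares were compared with no test. Further circles, named here after their values were seen, were read in Lovo alone and came from SH3D19 (12 reads), CDH17, which encodes an intestinal cadherin (chromosome 8, 95172199 to 95178204; 2, 0 and 2 in resistant and 5, 0 and 1 in sensitive Lovo) and CFTR (10 reads). Those read in HCT116 alone included GPSM2 (9 reads in 3 libraries) and TIAM1, an exchange factor for RAC (8 reads in 2 libraries). Such a total can rest on 1 library: all 9 reads of a circle of KCNQ1, a potassium channel gene, came from sensitive HCT116 replicate 2, and all 8 of IPO11, an importin gene, from sensitive Lovo replicate 3.

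Only 3 of the 3411 circles (0.088%), those of USP34, FAT1 and NBPF1, had enough reads to be among the 300 circRNAs tested with edgeR's quasi-likelihood test, in 1 fit of all 12 libraries with Benjamini-Hochberg adjustment over the 300. A circle passed this filter only by being abundant in some group, so the 3 do not stand for the class. Resistant against sensitive, 0 of the 3 passed an adjusted p of 0.05 in HCT116, where 1% of the 300 did, and 0 in Lovo, where 0% did. The Lovo comparison had a value for 2 of the 3, since USP34 has 0 reads in both Lovo states. At an unadjusted p under 0.05 the numbers were 1 and 0, where 30 and 17 of the 300 passed. DESeq2 called 0 and 0, and limma-voom 1 and 0. The share of the 300 that these tools called was not counted, so nothing is read from their counts. The difference of the resistance effects between the lines could be estimated for 2 of the 3, FAT1 and NBPF1. It was called for neither by edgeR, where 0.333% of the 300 were, nor by DESeq2 or limma-voom. At an unadjusted p under 0.05 edgeR gave 1, where 29 of the 300 passed.

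The USP34 circle had 3477 ± 577 CPM of junction reads in resistant and 1126 ± 1040 in sensitive HCT116 (SD, n = 3 each). Its log2 fold change was 1.71 ± 0.52 (SE) with an adjusted p of 0.0755 by edgeR's quasi-likelihood test. The call depended on the setting: over 14 alternatives the adjusted p ran from 0.00100 to 0.668 and passed in 4. Without sensitive replicate 1 the log2 fold change was 2.74 and the adjusted p 0.00501. With any other HCT116 library left out the circle did not pass. The adjusted p by edgeR then ran from 0.221 (without resistant replicate 2) to 0.495 (without sensitive replicate 3, log2 fold change 1.22). For NBPF1 in HCT116 the log2 fold change was 2.12 ± 1.11 with an adjusted p of 0.518, and the difference of its effect between lines was 2.62 ± 1.34 with an adjusted p of 0.517, both by edgeR. The FAT1 circle had adjusted p-values of 0.967 in HCT116 and 1 in Lovo.

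Between the lines, 2 of the 3 were called in sensitive cells, where 14.3% of the 300 were, and 1 in resistant cells, where 16.7% were. The USP34 circle entered the test through HCT116, the 1 line in which it was read, so nothing is read from these counts beside the background. The USP34 circle was higher in HCT116, by at least 6.57-fold in sensitive cells (23 against 0 reads) and at least 26.7-fold in resistant cells (89 against 0), with a floor of 3 reads over the Lovo group. The adjusted p-values were 8.10e-05 and 6.73e-12 by edgeR's quasi-likelihood test, and the call held in 13 of 13 alternatives that could test the circle in sensitive cells and in 14 of 14 in resistant cells. With only the sensitive groups compared, the circle did not pass the filter on low counts. The alternatives use the same reads, so they are no separate support. NBPF1 was lower in sensitive HCT116 than in sensitive Lovo (2 against 24 reads), with a log2 fold change of -3.56 ± 1.02 and an adjusted p of 0.00621 by edgeR. It was not called without Lovo sensitive replicate 1 (log2 fold change -1.90, adjusted p 0.471), nor without HCT116 sensitive replicate 3 (adjusted p 0.0711), nor with no filter on low counts (adjusted p 0.223). In resistant cells its adjusted p was 0.517. FAT1 had log2 fold changes of -1.28 ± 0.65 and -1.03 ± 0.62 in sensitive and resistant cells, with adjusted p-values of 0.171 and 0.296 by edgeR.

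By host, the 3411 circles came from 2152 genes, of which 1448 (67.3%) hosted 1 of them, 413 hosted 2, 291 hosted 3 or more and 62 hosted 5 or more. Recorded exonic coding circRNAs were also listed for 1369 of these genes (63.6%). The other 783 hosted 983 circles with 2067 reads and no recorded one. CFTR, the chloride channel gene mutated in cystic fibrosis, hosted most, 14 circles, and 0 recorded exonic coding ones. LRPPRC, a mitochondrial RNA-binding protein gene, hosted 11 beside 12 recorded ones. The nucleoporin gene NUP98 hosted 10 beside 12, PRKDC, the catalytic subunit of DNA-dependent protein kinase, 10 beside 20, and FAT1 9 beside 3, where 2 further genes also hosted 9. In CFTR the circles without a record held 86.7% of the host's junction reads, in LRPPRC 26.7%, in NUP98 22.2%, in FAT1 15.5% and in PRKDC 8.91%.

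Reads of these circles were also summed per host, beside a sum of all other circRNAs of the same host, and tested as 543 sums. Of the 2152 sums without a record 7 were high enough to test: USP34, FAT1, NBPF1, CFTR, SLCO1B3, CATSPERB and PIK3R3. A sum passed this filter only by being abundant in some group, so the 7 do not stand for the rest. Resistant against sensitive, 5 of the 7 had a value in HCT116, where CFTR and PIK3R3 have 0 reads in both states, and 6 in Lovo, where USP34 has 0. Of these edgeR called 0 in HCT116, against 0.552% of the 543, and 0 in Lovo, against 0%. At an unadjusted p under 0.05 the numbers were 1 and 0, where 36 and 27 of the 543 passed. The difference of effects between the lines could be estimated for 4 of the 7. None of the 4 was called, where 0% of the 543 were. An unadjusted p under 0.05 was found for 0 of them, where 39 of the 543 had one. The other tools were not run on sums. The USP34 sum, with 29, 28 and 38 reads in resistant and 18, 8 and 3 in sensitive HCT116, had a log2 fold change of 1.54 ± 0.50 and an adjusted p of 0.190 by edgeR, and passed in 2 of 11 alternatives.

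Between HCT116 and Lovo, 3 of the 7 sums were called in sensitive cells, where 9.76% of the 543 were, and 3 in resistant cells, where 12.5% were. USP34, CFTR and PIK3R3 entered the test through the 1 line in which they were read. SLCO1B3 entered it through its Lovo reads, since its HCT116 groups held 1 and 2 reads. Nothing is therefore read from these counts beside the background. USP34 was higher in HCT116 in both states, with adjusted p-values of 1.87e-05 and 2.23e-12. The other circRNAs of USP34, by contrast with the 0 reads of those without a record, were read in all 6 Lovo libraries, at 2, 9 and 6 in resistant and 1, 9 and 4 in sensitive Lovo, and at 20, 5 and 15 in resistant and 6, 8 and 11 in sensitive HCT116. CFTR was lower in HCT116, with 0 reads in all 6 libraries, against 4, 7 and 12 in resistant and 10, 4 and 2 in sensitive Lovo. It was at least 6.22-fold lower in sensitive and at least 8.52-fold lower in resistant HCT116 with the same floor, at adjusted p-values of 0.00982 and 0.00271 by edgeR. The call in sensitive cells was lost with no filter (adjusted p 0.0603) and without Lovo sensitive replicate 1 (adjusted p 0.113), and that in resistant cells without Lovo resistant replicate 3 (adjusted p 0.0508).

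The CFTR reads came from 10 of its 14 circles, which lie between 117144307 and 117292985 on chromosome 7. The 3 most abundant start at the same position, 117170953, and end at 117199709 (10 reads), 117254767 (6 reads) and 117188877 (5 reads), and none of them shares an end with a recorded circRNA. The SLCO1B3 sum had 0, 1 and 0 reads in resistant and 0, 2 and 0 in sensitive HCT116, against 6, 9 and 3 in resistant and 3, 12 and 3 in sensitive Lovo. It was called lower in resistant HCT116 than in resistant Lovo (1 against 18 reads, log2 fold change -3.88 ± 1.35, adjusted p 0.0349 by edgeR), a call that held in 5 of 10 alternatives, and had an adjusted p of 0.0790 in sensitive cells. The SLCO1B3 sum passed the filter on low counts through its Lovo reads, which favours such a call. In 2 of its 4 circles the start, 21028169, is shared. NBPF1 had an adjusted p of 0.0219 in sensitive cells, held in 5 of 10 alternatives, and 0.547 in resistant cells. CATSPERB, a subunit gene of a sperm calcium channel, and PIK3R3 had adjusted p-values of 0.0829 and 0.129 in sensitive and 0.857 and 0.167 in resistant cells by edgeR.

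**Figure D5:**
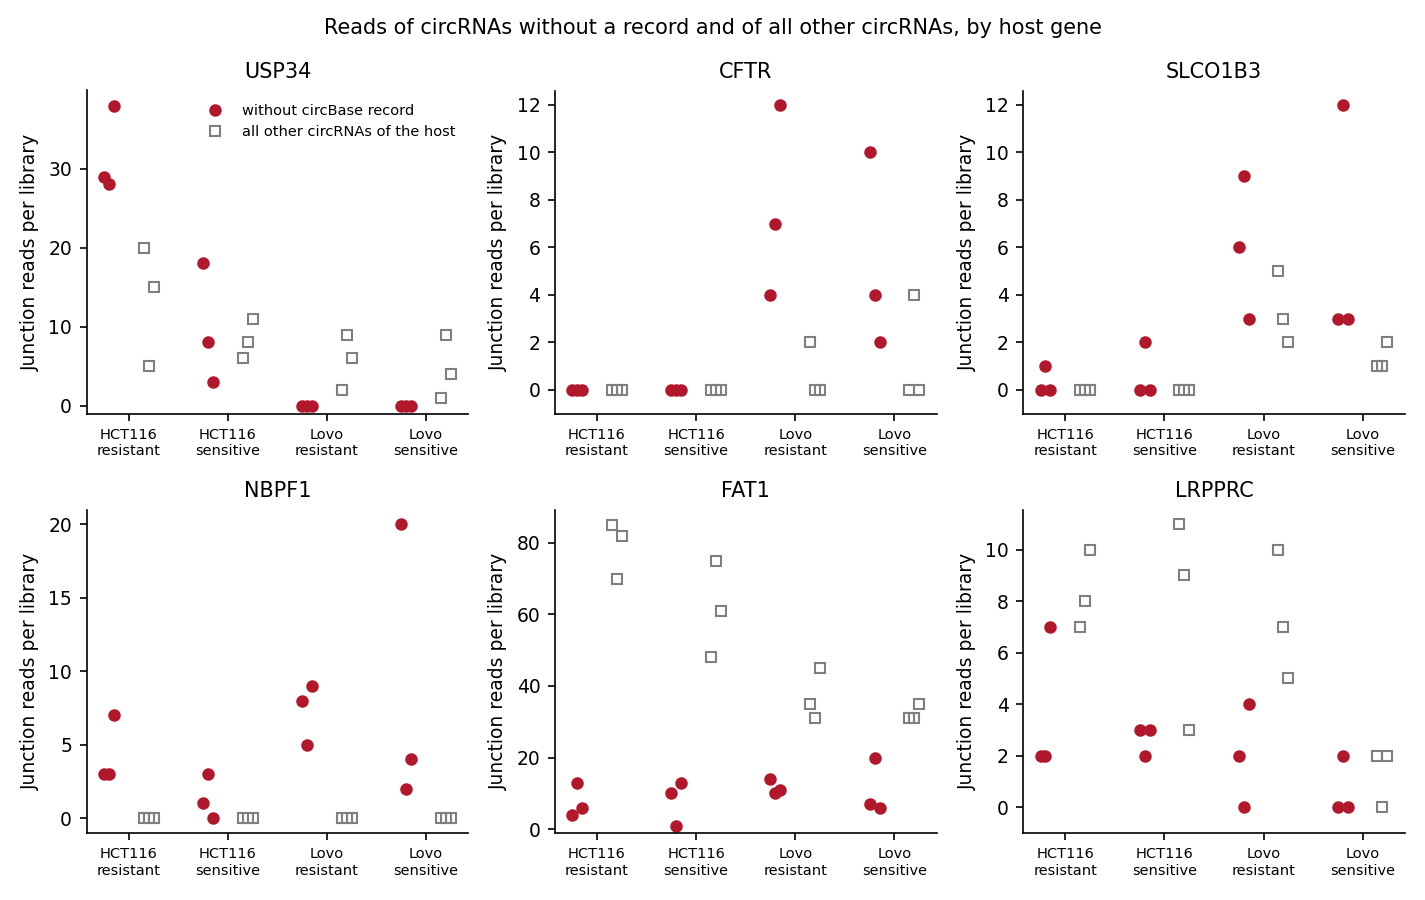
Junction reads per library in 6 host genes, summed over circles without a circBase record (filled circles) and over all other circRNAs of the host (open squares), in the 4 groups of 3 libraries. USP34 circles without a record have 0 reads in Lovo while its other circRNAs have 1 to 9, and CFTR circles without a record have 0 reads in HCT116.

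Grouped by function of the host, the share of exonic coding circRNAs that lack a record differed from list to list around the 26.1% of the table. Markers of colon epithelium, with 13 circles in all, stood at 61.5% (8 circles without and 5 with a record). Of the 10 functional lists it was highest among hosts for adhesion, junctions, matrix and epithelial-mesenchymal transition, at 43.7% (66 and 85), of which FAT1 alone hosted 9. DNA damage response and repair hosts stood at 34.1% (94 and 182), cell cycle hosts at 29.9% (96 and 225), and hosts for fluoropyrimidine and folate metabolism with ABC transporters at 27.0% (20 and 54). Ubiquitin ligase and deubiquitinase hosts followed at 24.5% (103 and 317), splicing factor hosts at 24.3%, WNT signalling hosts at 24.0%, chromatin hosts at 22.8%, receptor, RAS-MAPK and PI3K-mTOR hosts at 20.3% and p53 and apoptosis hosts at 18.4%. Of the circles on these lists the USP34 and FAT1 ones alone were tested, and the rest held too few reads.

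In the lists closest to the drug, no circle without a record had more than 7 reads. The fluoropyrimidine, folate and ABC transporter list had 52 reads on circles without a record, at 19, 12, 7 and 14 in resistant HCT116, sensitive HCT116, resistant Lovo and sensitive Lovo. Its most abundant were a circle of ABCD3, a peroxisomal transporter gene (7 reads in 4 libraries), and one of ABCG2, a drug efflux pump gene (4 reads, all in sensitive HCT116 replicate 1). The DNA repair list had 167 reads, at 39, 64, 35 and 29 in the same order, led by BRCA2, a homologous recombination gene (0, 0 and 4 in sensitive HCT116, 0, 0 and 1 in resistant Lovo) and FANCM, a Fanconi anaemia helicase gene (5 reads, all in sensitive HCT116 replicate 2), beside 3 more circles with 5 reads, of TP53BP1, FANCI and BLM. The p53 and apoptosis list had 25 reads, led by CFLAR, a caspase-8 inhibitor gene, and BIRC6, an inhibitor of apoptosis (4 reads each).

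The leading circles of the other lists also had few reads, and where several were tied the first by identifier are named. In the cell cycle list they were circles of KNTC1, a kinetochore gene, and CDC25C, a mitotic phosphatase gene (6 reads each, the second in 5 libraries). In the WNT list they came from CSNK1G3, a casein kinase gene (7 reads in 6 libraries), and the co-receptor gene LRP6 (5 reads, all in sensitive Lovo replicate 1). The signalling list was led by RPTOR, the scaffold of mTORC1 (7 reads, all in resistant HCT116 replicate 1), and FGFR2 (2, 1 and 3 in sensitive HCT116 and 0 in the other 9 libraries). Splicing factor hosts were led by the helicase gene DDX46 and by SRPK2, and chromatin hosts by JMJD1C and the methylcytosine dioxygenase gene TET3 (5 reads each). Colon epithelium marker hosts had 8 circles without a record and 31 reads, at 0 in resistant and 4 in sensitive HCT116, and 7 in resistant and 20 in sensitive Lovo, led by CDH17 (10 reads) and CDH1, the E-cadherin gene (6 reads), both in Lovo alone.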

How the data were processed

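The deposited values are counts, per the file headers: whole junction reads for each circRNA in each library, not normalized, with annotation by the authors beside them (position, strand, host gene, class, circBase identifier, source, best transcript and predicted length). The submitters' processing notes name hg19 as build and list, without their roles, edgeR 3.16.5, STAR 2.5.1b and cutadapt 1.9.3. Which program called the circles, and above which count a circle was listed, is not given in the sources used here. Coordinates are hg19 and count from 1, copied from the circRNA identifiers. No sequence is printed, since no genome of this build was used here.

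Groups and replicate numbers came from the labels. All counts of the table entered 1 edgeR 4.0.16 fit in R 4.3.3 (limma 3.58.1): TMM, filterByExpr (min.count 5, min.total.count 15), 4 group means, 8 residual degrees of freedom, the quasi-likelihood F-test and Benjamini-Hochberg adjustment. It was tested on simulated data. The SE of a log2 fold change is its size divided by the square root of F. CPM were computed after TMM scaling. The contrasts were resistant against sensitive in each line, their difference, and HCT116 against Lovo in each state. Alternatives were other scaling (RLE, none), no filter, a minimum count of 10, DESeq2 1.42.0, limma-voom, fewer samples, a replicate block and leaving out each library. Log2 fold changes are printed where the unadjusted p was under 0.1. Of the smaller changes, 4 of 5 for circles and 10 of 16 for host sums turned sign in some alternative.

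Same-numbered libraries were treated as unpaired. Of 18 correlations of deviations from group means, 0 exceeded 0.1 (from -0.136 to 0.0625, over 300 circRNAs). Counting error at so few reads draws such correlations toward 0, so they cannot exclude pairing. Folds against a group at 0 use a floor of 3 reads over the group. Ratios have exact 95% intervals scaled by library size. Thinning used the hypergeometric expectation. Ends were compared at the exact base on the same strand. Of the 2152 host symbols, 2053 matched a current and 2151 a current or older symbol. The members, gene lists and tests were chosen with earlier results of these data known. Named were circles called in a contrast or tested, the 12 with most reads, the longest and shortest, the 5 hosts with most members, the host sums tested, and the 2 (in a class of regions up to 3) with most reads in each list, ties by identifier.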

Additional observations from a re-analysis of the deposited data

How the results depend on the processing

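Of the 185 alternative values of the main results, 158 stayed within the limits set for them (for a count of calls, within 1.5 times), 25 moved further and 2 were reversed. Of the 136 counts of calls among them, 111 equalled the reported one and 25 differed from it. Calls of circles in resistant against sensitive HCT116 were 1 with a minimum count of 10, with limma-voom and with only the groups compared, and 0 to 1 when a library was left out. All of these were the USP34 circle. Between the lines in sensitive cells the calls were 1 with no filter, 1 with a minimum count of 10, 0 with only the groups compared (where neither called circle passed the filter on low counts) and 1 to 2 with a library left out. For host sums, the calls in resistant against sensitive HCT116 were 1 with a minimum count of 10 and 0 to 1 with a library left out. In sensitive HCT116 against Lovo they were 1 with no filter, 1 with a minimum count of 10 and 1 to 4 with a library left out, and in resistant HCT116 against Lovo 2 with no filter, 1 with a minimum count of 10 and 2 to 3 with a library left out. A higher minimum tests fewer features, and the other causes were not tested. The replicate block left the calls of circles at 0 in resistant against sensitive HCT116, 0 in Lovo, 2 and 1 between the lines in sensitive and resistant cells, and left 2 of the 3 calls of host sums between the lines in sensitive cells, ending that of NBPF1 (log2 fold change -2.60, adjusted p 0.0689).

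The share of reads on the class became 8.94% in resistant and 9.57% in sensitive HCT116, and 8.70% in resistant and 9.13% in sensitive Lovo when divided by exonic reads alone. The share of detected circles seen in 1 group was 95.6% with detection at 2 reads and 85.7% to 87.3% with a replicate number left out, where fewer libraries were searched. The median predicted length was 697 bases among circles with 5 or more reads, and both ends were shared by 10.0% when all circRNAs of the table were searched. The difference in depth between resistant and sensitive HCT116 ranged from -906 to 1243 reads and was reversed without resistant replicate 1 (-178) and without sensitive replicate 1 (-906). At these depths 3408 circles could not be tested, and a circle with 0 reads in a group may be present below the floor of 3 reads.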

Other observations

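Across chromosomes the share of exonic coding circRNAs without a record ranged from 20.8% on chromosome 18 (71 without and 271 with a record) to 34.0% on chromosome 22 (72 and 140). Chromosome X stood at 31.1% (52 and 115), and chromosomes 1 and 2, which hold most circles without a record, at 23.1% (273) and 25.4% (284). Reads on circles without a record were 471 in HCT116 and 173 in Lovo on chromosome 2, of which the USP34 circle held 112, and 164 in HCT116 and 239 in Lovo on chromosome 12.

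The 890 circles listed with 0 reads resembled those with reads in size. Their median predicted length was 777 bases (quartiles 446.25 and 1251.75), against 747 (438 and 1204) for the 2521 with reads, and their median span was 11673.5 bases, against 12992. An earlier publication was named for 33 of the 890 and for 169 of the 2521. How a circle with 0 reads in all 12 libraries came to be listed was not tested.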
